A study of Mus musculus with 6 samples.

Results

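Troponin genes were examined in left ventricles collected 4 days post injury (dpi) from mice with surgical myocardial infarction (MI). The genes were chosen by symbol as the troponin I, T and C family: the cardiac forms Tnni3, Tnnt2 and Tnnc1, the slow skeletal or fetal forms Tnni1 and Tnnt1, and the fast skeletal forms Tnni2, Tnnt3 and Tnnc2. Of these 8 genes, 7 were measured among 15909 genes in all, and Tnnc2 was not analysed here. Bulk RNA sequencing compared 3 libraries from mice given recombinant human CCN3, a secreted matricellular protein, at 6 µg/kg by intraperitoneal injection with 3 libraries from mice given PBS. Every mouse in both groups had its left anterior descending artery ligated, so no library represents an uninjured heart. The labels give a daily injection over 4 days, whereas in the study's text dosing began on the day after MI. The study describes the sequenced animals as adult and names C57/B6J for its CCN3 dosing work. Genotype manipulation and sex are not given for these libraries. Levels are in log2 CPM (CPM is a gene's count scaled to the library total), from which the authors had taken out 2 RUV factors, estimates of unwanted variation. The depth of each library cannot be read from such values, and counting error is therefore left out. The labels call the libraries biological replicates without saying that each came from a separate animal. Any pair of libraries had a Pearson r over genes between 0.989 and 0.998.

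Troponin is the calcium switch of striated muscle and sits on the thin filament of actin and tropomyosin. Troponin C binds calcium, troponin I holds back the interaction of actin with myosin until calcium is bound, and troponin T ties the complex to tropomyosin. Fibre types use different genes for each subunit. The fetal heart uses Tnni1, which is replaced by Tnni3 around birth, whereas Tnnt2 and Tnnc1 serve the heart both before and after birth. Tnni3 has an N-terminal extension that is phosphorylated by protein kinase A downstream of beta-adrenergic receptors.

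Troponin I and troponin T genes lie in pairs in the mouse genome. On GRCm39, Tnni3 (chromosome 7, 4521300 to 4527228) and Tnnt1 (4507567 to 4519381) share the minus strand with a gap of 1.92 kb and no protein-coding gene between them. Tnni1 (chromosome 1, 135707172 to 135738727) and Tnnt2 (135763738 to 135780315) are 25.01 kb apart, with Lad1 between. Tnni2 (chromosome 7, 141995545 to 141998147) and Tnnt3 (142048605 to 142070280) are 50.46 kb apart, with Lsp1 between. Tnnc1 lies alone on chromosome 14 from 30930232 to 30933708.

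The bases just upstream of the annotated start are shown for Tnni1, Tnni2 and Tnnt3, the 3 genes for which every CCN3 library lay above every PBS library. Each run holds 250 bases that end 1 base before the start of the canonical GENCODE transcript, read 5′ to 3′ from GRCm39, and capitals mark the E-box CAGCTG, a binding motif of myogenic bHLH factors.
Tnni1, chr1:135726890-135727139, plus strand: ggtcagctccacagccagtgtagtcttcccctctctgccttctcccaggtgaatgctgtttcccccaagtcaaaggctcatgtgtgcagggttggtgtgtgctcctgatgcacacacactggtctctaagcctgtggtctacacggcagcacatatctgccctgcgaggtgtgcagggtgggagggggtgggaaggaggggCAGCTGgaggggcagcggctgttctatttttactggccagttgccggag
Tnni2, chr7:141995295-141995544, plus strand: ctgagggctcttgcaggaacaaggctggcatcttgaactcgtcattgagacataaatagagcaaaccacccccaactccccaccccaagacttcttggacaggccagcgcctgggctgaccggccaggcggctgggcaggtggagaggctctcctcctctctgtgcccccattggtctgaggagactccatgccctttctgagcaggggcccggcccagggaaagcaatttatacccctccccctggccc
Tnnt3, chr7:142052170-142052419, plus strand: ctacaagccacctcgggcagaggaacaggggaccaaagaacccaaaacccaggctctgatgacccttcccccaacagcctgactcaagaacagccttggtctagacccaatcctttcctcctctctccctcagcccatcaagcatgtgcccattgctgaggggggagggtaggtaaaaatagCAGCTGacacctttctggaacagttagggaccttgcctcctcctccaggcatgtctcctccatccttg

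An E-box of these letters starts 49 bases before the canonical start of Tnni1 and 68 bases before that of Tnnt3, while Tnni2 has none in this window. These canonical starts, at 135727140 for Tnni1 and 142052420 for Tnnt3, lie inside the annotated genes, which begin at 135707172 and 142048605. Both runs therefore lie within the gene spans, although no annotated exon reaches into them. Promoters were searched on both strands from 250 bases before to 50 bases after the start, with no overlap between matches of different motifs in the troponin genes. CAGCTG was present in 2 of 8 troponin promoters and in 14.8% of 21751 protein-coding promoters. The core CATTCC of the M-CAT element, bound by Tead factors, was present in 2 of 8 (Tnnc1 and Tnnt3) and in 14.0% of all. In Tnnt3 it begins 23 bases into the transcript, outside the run shown. The GATA motif AGATAA (10.6% of all promoters), the MEF2 consensus (2.96%) and the CArG box (1.54%) were in 0 of 8. The window of Tnni3 is not shown because exons of longer Tnni3 transcripts reach into it.

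Left ventricles expressed the cardiac forms almost alone. Levels were compared between genes as CPM per kb of canonical transcript, since longer transcripts give more reads. Tnnt2 ranged from 2369 to 2616 CPM per kb over the 6 libraries, Tnni3 from 1306 to 1896 and Tnnc1 from 1343 to 1630. By log2 CPM not corrected for length, Tnnt2 ranked 11, Tnni3 48 and Tnnc1 70 of all genes. The next gene in order was Tnnt1, at 5.87 to 7.84 CPM per kb, followed by Tnni2 at 1.92 to 6.02, Tnnt3 at 1.25 to 7.84 and Tnni1 at 0.417 to 1.18. Ranges of Tnni2 and Tnnt3 overlapped each other and, in CCN3 libraries, that of Tnnt1. Within the troponin I family, Tnni3 supplied between 99.5% and 99.9% of the per-kb total in every library. Tnnt2 supplied between 99.4% and 99.7% of the troponin T total. The labelled tissue carried its defining cardiac troponins at high level, and the skeletal forms were minor.

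**Figure D1:**
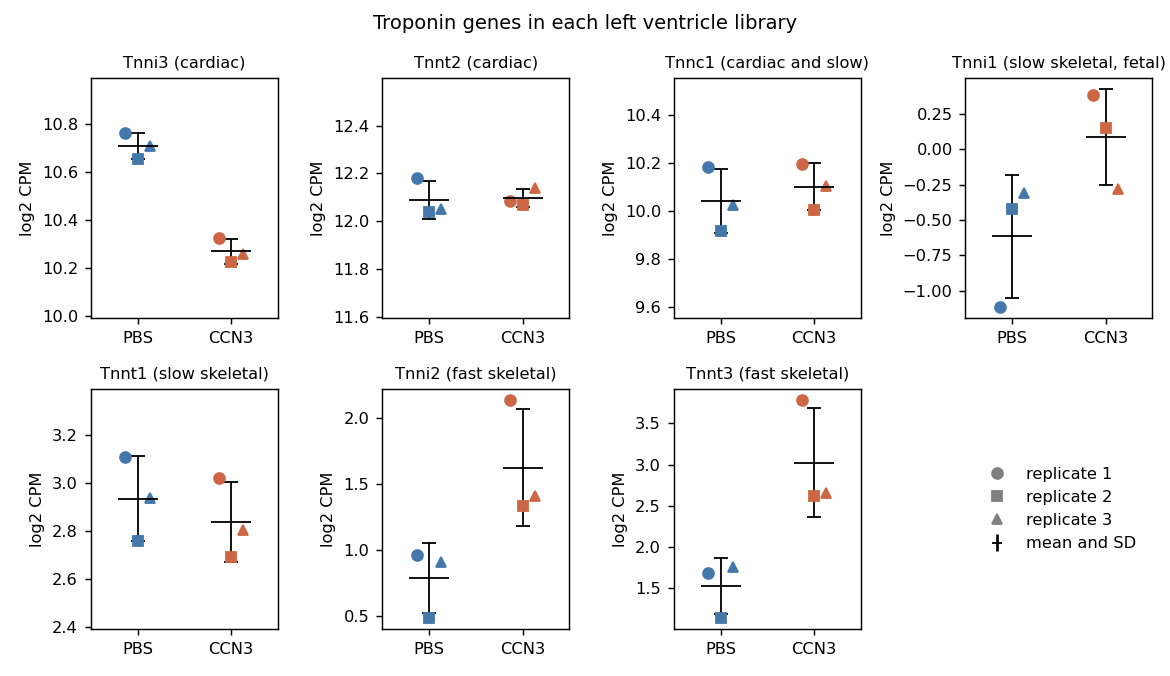
Log2 CPM (y axis, a separate scale per gene) of the 7 troponin genes in the PBS and CCN3 libraries. Points are libraries, bars are means with SD (n = 3). Tnni3 is lower in all 3 CCN3 libraries, whereas Tnnt2, Tnnc1 and Tnnt1 overlap between groups.

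The comparison asked whether CCN3 given after MI was accompanied by a change in troponin transcripts. Of the 7 genes, Tnni3 fell and 0 rose at an adjusted p under 0.2, the threshold used in the study (limma, Benjamini-Hochberg over all genes). At the same threshold 1.6% of all genes were called, 0.515% as higher and 1.08% as lower. The lowest limma adjusted p of any gene was 0.110, so every call lay between that value and 0.2. Tnni2 and Tnnt3 were higher and Tnni3 lower at an unadjusted p under 0.05, a level met by 10.6% of all genes. The groups did not overlap for 4 of the 7 genes, Tnni3 lower and Tnni1, Tnni2 and Tnnt3 higher, compared with 33.3% of all genes (15.1% with CCN3 above and 18.2% with CCN3 below). The median Log2FC of the 7 genes was 0.06, compared with a median of -0.0018 over all genes.

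Tnni3, the inhibitory subunit of the adult heart, measured 10.76, 10.66 and 10.71 log2 CPM in PBS replicates 1 to 3 and 10.32, 10.22 and 10.26 in CCN3 replicates 1 to 3. The highest CCN3 library lay below the lowest PBS library by more than the spread within either group. The SD was 0.05 in each group (n = 3). Tnni3 fell to 0.737 of the mean PBS value, with a Log2FC of -0.44 ± 0.08 (SE), a 95% interval from -0.64 to -0.24 and a limma adjusted p of 0.177. The call is close to the threshold: without PBS replicate 3 the limma adjusted p was 0.244 and without CCN3 replicate 3 it was 0.211, at Log2FC of -0.44 and -0.43. It was 0.403 without a mean-variance trend, a fit in which 1 of 15909 genes was called.

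Tnnt2, the tropomyosin-binding subunit of the heart, measured 12.18, 12.04 and 12.05 log2 CPM in the PBS libraries and 12.08, 12.07 and 12.14 in the CCN3 libraries. The groups overlapped, and the Log2FC of 0.01 ± 0.12 (SE) had a 95% interval from -0.27 to 0.28. Tnnc1, the calcium-binding subunit, measured 10.19, 9.92 and 10.02 in PBS libraries and 10.20, 10.01 and 10.11 in CCN3 libraries. These groups overlapped as well, with a Log2FC of 0.06 ± 0.10 and an interval from -0.19 to 0.31. Neither gene passed (limma adjusted p = 0.992 and 0.891), and the direction turned for Tnnt2 without PBS replicate 2, PBS replicate 3 or CCN3 replicate 3 and for Tnnc1 without PBS replicate 2.

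Tnni3 was next set against its partners within each library, a choice made after the values were seen and given without a test. Tnni3 minus Tnnt2 was -1.42, -1.38 and -1.34 log2 units in the PBS libraries and -1.76, -1.84 and -1.88 in the CCN3 libraries. Tnni3 exceeded Tnnc1 by 0.58, 0.74 and 0.69 log2 units in the PBS libraries and by 0.13, 0.22 and 0.15 in the CCN3 libraries. Group means of these differences moved by -0.45 and -0.50. Per kb of transcript, Tnni3 was above Tnnc1 in all 3 PBS libraries (1761 to 1896 against 1343 to 1617 CPM per kb) and below it in all 3 CCN3 libraries, where it reached 1400, 1306 and 1338 against 1630, 1426 and 1528 for Tnnc1. This order rests on the canonical transcript lengths of 916 bases for Tnni3 and 721 bases for Tnnc1.

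**Figure D2:**
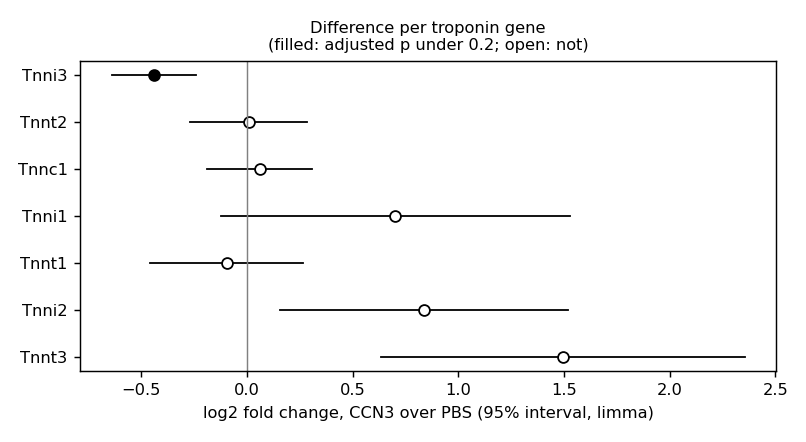
Log2 fold change of CCN3 over PBS (x axis) with its 95% interval from limma for each troponin gene. Only the Tnni3 point is filled (adjusted p = 0.177), and the intervals of Tnni2 and Tnnt3 lie above 0 although neither passed over all genes.

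Of the slow skeletal and fetal forms, Tnni1 had a positive and Tnnt1 a negative Log2FC, but both 95% intervals spanned 0. Tnni1, the fetal troponin I, measured -1.12, -0.42 and -0.31 log2 CPM in PBS libraries and 0.38, 0.15 and -0.28 in CCN3 libraries. CCN3 replicate 3 lay just above PBS replicate 3, and the other two CCN3 libraries lay further up. The Log2FC was 0.70 ± 0.34 (SE) with a 95% interval from -0.13 to 1.53, and Tnni1 did not pass (limma adjusted p = 0.546). At a mean of -0.27 log2 CPM, 6.76% of all genes lay below it. Its Log2FC was 0.45 without PBS replicate 1 and 0.31 on the log2(CPM + 1) scale. Tnnt1, the slow skeletal troponin T, measured 3.11, 2.76 and 2.94 in PBS libraries and 3.02, 2.69 and 2.80 in CCN3 libraries. The groups overlapped throughout, with a Log2FC of -0.10 ± 0.15 and an interval from -0.46 to 0.27 (limma adjusted p = 0.876).

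Both fast skeletal forms lay higher in every CCN3 library, and CCN3 replicate 1 had the highest value of each. Tnnt3, the fast skeletal troponin T, measured 1.69, 1.14 and 1.75 log2 CPM in PBS libraries and 3.78, 2.62 and 2.65 in CCN3 libraries. Its Log2FC of 1.49 ± 0.36 (SE), or 2.82-fold, ranked 11 among all genes in the higher direction, with a 95% interval from 0.63 to 2.35. Among all genes, 0.578% had a Log2FC of at least 1 in either direction. The level of Tnnt3 was low: at a mean of 2.27 log2 CPM, 24.7% of all genes lay below it. Tnnt3 ranked 347 by limma p and did not pass (adjusted p = 0.228). Without CCN3 replicate 1 its Log2FC was 1.11 and it did pass (adjusted p = 0.133), as it did without PBS replicate 1 (1.57, adjusted p = 0.150), in fits that called 8.33% and 13.9% of all genes.

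Tnni2, the fast skeletal troponin I, measured 0.97, 0.49 and 0.92 log2 CPM in PBS libraries and 2.14, 1.34 and 1.41 in CCN3 libraries. Its Log2FC was 0.84 ± 0.28 (SE), or 1.79-fold, with a 95% interval from 0.16 to 1.52 and a limma adjusted p of 0.362. At a mean of 1.21 log2 CPM, 17.2% of all genes lay below Tnni2. Without CCN3 replicate 1 the Log2FC was 0.58 (adjusted p = 0.246), and without PBS replicate 1 it was 0.93 and passed (adjusted p = 0.192). On the log2(CPM + 1) scale the Log2FC was 0.59 for Tnni2 and 1.24 for Tnnt3. Across the 6 libraries Tnni2 and Tnnt3 had a Pearson r of 0.993, given as a description, since both were read from the same libraries. Tnnt3 was further from its PBS mean than Tnni2 in CCN3 libraries, so that the difference of Tnni2 minus Tnnt3 went from -0.73 ± 0.09 to -1.39 ± 0.22 log2 units (SD, n = 3), a pair chosen after the values were seen.

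Isoform balance was measured as the difference in log2 CPM between a skeletal form and its cardiac counterpart within each library, which does not move with the scaling of that library. Tnni1 minus Tnni3 was -11.88, -11.08 and -11.02 in PBS libraries and -9.94, -10.07 and -10.54 in CCN3 libraries, a shift of 1.14. Tnni2 minus Tnni3 shifted by 1.28, from -9.92 ± 0.22 to -8.64 ± 0.40 (SD, n = 3). Tnnt3 minus Tnnt2 shifted by 1.49, from -10.57 ± 0.31 to -9.08 ± 0.67. The groups did not overlap for these 3 pairs, and each had a two-sided exact permutation p of 0.1 (adjusted p = 0.133 over the 4 pairs), the smallest that 3 against 3 libraries can give. This test treats the libraries as exchangeable although the removed factors left them fewer independent directions, so these p-values can be too small. The groups did not overlap for 33.3% of all genes taken singly, and no such share was measured for pairs. Tnni1, Tnni2, Tnni3 and Tnnt3 also did not overlap taken singly. Both troponin I pairs share Tnni3, with its own Log2FC of -0.44, so the pairs are not evidence separate from the single genes. Tnnt1 minus Tnnt2 shifted by -0.10, from -9.16 ± 0.11 to -9.26 ± 0.17, with overlapping groups (exact permutation p = 0.4). The pair of Tnnc2 and Tnnc1 was not analysed here. As a share of the troponin I family per kb, Tnni2 went from between 0.109% and 0.141% in PBS libraries to between 0.263% and 0.428% in CCN3 libraries, and Tnni1 from between 0.0220% and 0.0398% to between 0.0556% and 0.0840%. Tnnt3 went from between 0.0528% and 0.0801% of troponin T to between 0.140% and 0.319%.

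**Figure D3:**
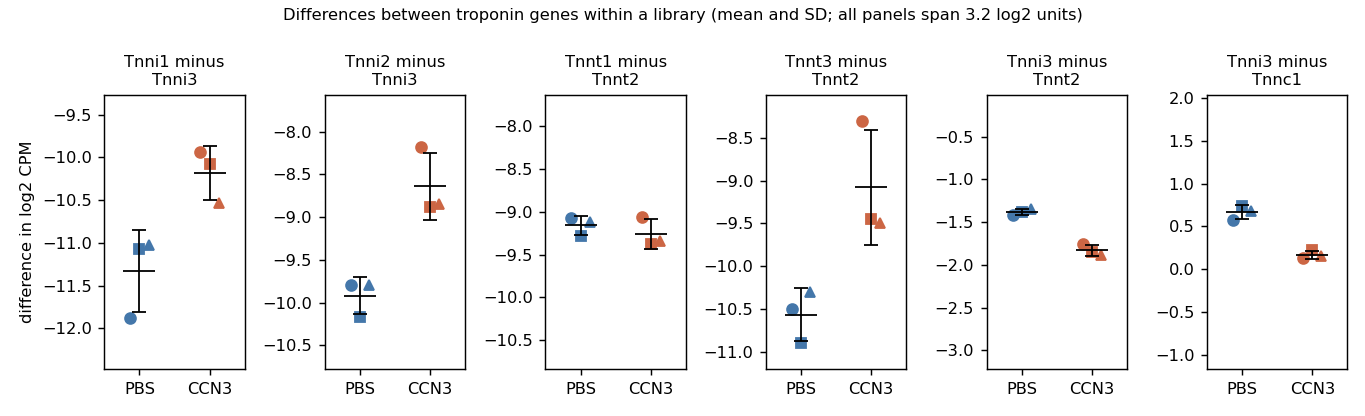
Differences in log2 CPM (y axis) between pairs of troponin genes within each library, with mean and SD (n = 3), on scales of equal span. Tnni1, Tnni2 and Tnnt3 approach their cardiac counterparts in the CCN3 libraries by 1.14, 1.28 and 1.49 log2 units, Tnnt1 does not, and Tnni3 moves down against both Tnnt2 and Tnnc1.

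Other skeletal muscle genes were examined because body wall or other skeletal muscle could reach a dissected ventricle. Of 19 skeletal muscle markers 11 were measured, and the adult fast myosins Myh1, Myh2 and Myh4 were not analysed here. Among the 11, 0 rose in limma (1, Casq1, was higher at an unadjusted p under 0.05). Cacna1s, the pore subunit of the skeletal muscle calcium channel, fell by 0.79 ± 0.17 (SE) on the log2 scale (limma adjusted p = 0.198). Of all genes, 0.515% were called higher and 1.08% lower, and 10.6% had an unadjusted p under 0.05 in either direction. For 10 of the 11 the highest of all 6 libraries was CCN3 replicate 1, the library that also had the highest Tnni1, Tnni2 and Tnnt3. The share of all genes highest in that library was not measured. For Mybpc2 the margin was small, with 5.055 log2 CPM in CCN3 replicate 1 and 5.054 in PBS replicate 1. Mylpf, the fast skeletal regulatory light chain, measured 0.09, -0.63 and 0.24 log2 CPM in PBS libraries and 1.87, 0.22 and 0.22 in CCN3 libraries. Its groups overlapped. Actn3, a fast-fibre alpha-actinin, measured -1.01, -1.71 and -1.21 in PBS libraries and 0.15, -0.77 and -0.61 in CCN3 libraries (Log2FC 0.90). Casq1, the skeletal calsequestrin, measured 3.11, 2.36 and 2.79 in PBS libraries and 4.15, 3.35 and 3.57 in CCN3 libraries (Log2FC 0.94). Both lay above every PBS library in every CCN3 library, 2 of 11 markers compared with 15.1% of all genes. Cacna1s lay below every PBS library in every CCN3 library, 1 of 11 compared with 18.2% of all genes. Without CCN3 replicate 1 the differences were 0.32 for Mylpf, 0.62 for Actn3 and 0.71 for Casq1, and those of Pvalb and Ryr1 turned to -0.32 and -0.05. The median over the 11 markers was 0.39 with that library and 0.10 without it, with 9 and 7 positive. Their summed level ran from 81.4 to 124 CPM in PBS libraries and from 101 to 149 in CCN3 libraries. The part of these markers in the Tnni1, Tnni2 and Tnnt3 values was not tested.

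**Figure D4:**
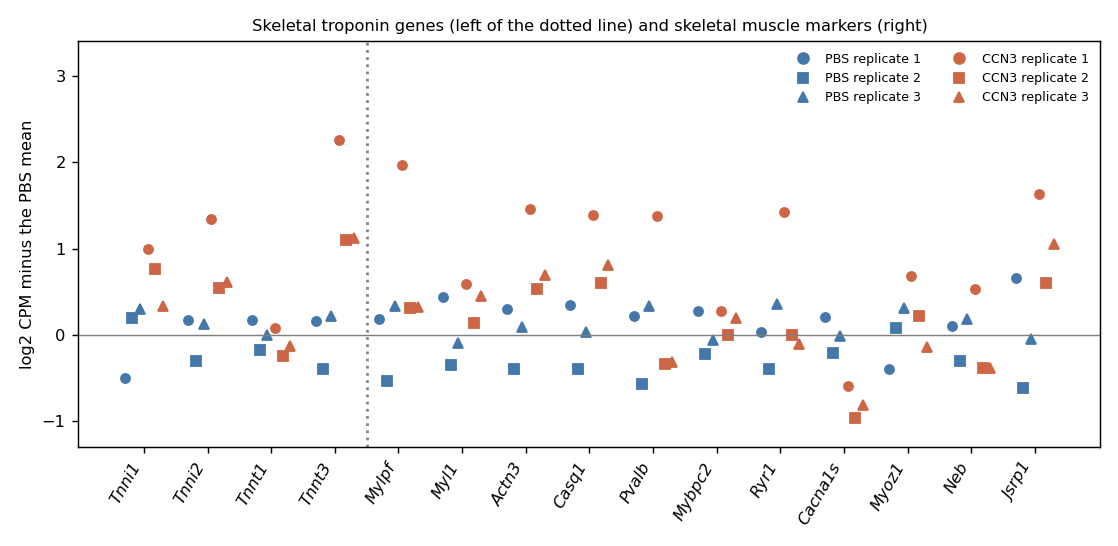
Log2 CPM minus the PBS mean (y axis) for the skeletal troponin genes and 11 skeletal muscle markers, with a point per library. CCN3 replicate 1 is the highest library for 10 of the 11 markers (narrowly for Mybpc2) and for Tnni1, Tnni2 and Tnnt3. CCN3 replicates 2 and 3 stay above all PBS libraries for Tnni1, Tnni2, Tnnt3, Actn3 and Casq1 but not for the other 9 markers. Of all genes, 15.1% had every CCN3 library above every PBS library.

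Thin filament partners of troponin differed in direction. Of 18 measured, Acta1 rose and Tmod4 fell, compared with 1.6% of all genes called, and Log2FC ran from -0.77 to 1.12 with a median of 0.01. The groups did not overlap for 5 of the 18, 4 with CCN3 above and 1 below, compared with 33.3% of all genes. Acta1, the skeletal alpha-actin, had a Log2FC of 1.12 ± 0.23 (SE, limma adjusted p = 0.192). Its level was high in these ventricles: at a mean of 7.41 log2 CPM, 92.7% of all genes lay below Acta1. Tmod4, a tropomodulin that caps the pointed end of thin filaments in skeletal muscle, fell by 0.77 ± 0.14 on the log2 scale (adjusted p = 0.169). Tpm1, the main cardiac tropomyosin, had a Log2FC of -0.02 ± 0.14, and the cardiac actin Actc1 had 0.30 ± 0.13. Among 12 kinase and phosphatase genes that act on or bind cardiac troponin, 0 passed in limma and 0 had an unadjusted p under 0.05. Their Log2FC ran from -0.22 (Prkd1) to 0.15 (Prkar1a), with -0.16 ± 0.10 for Tnni3k, which encodes a kinase that binds troponin I. Of 20 measured transcription factors of muscle promoters, 0 passed in limma. Tead1, Tbx20, Hand2 and Vgll3 had an unadjusted p under 0.05, each higher, with Log2FC of 0.18, 0.26, 0.42 and 0.27, and were named after their values were seen. Of all 15909 genes, 10.6% met that level in either direction, 645 as higher and 1049 as lower. In this list 17 Log2FC were positive and 3 negative, with a median of 0.09, compared with 7866 positive and 8043 negative over all genes. The CCN3 libraries lay above all PBS libraries for 9 of the 20 and below for 1, compared with 15.1% and 18.2% of all genes.

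Cardiomyocyte markers outside the troponin family were used to place the Tnni3 values. Of 12, 0 passed in limma, compared with 1.6% of all genes, and the median Log2FC was -0.11. An unadjusted p under 0.05 was met by 2 higher and 5 lower markers, compared with 10.6% of all genes in either direction. Hrc, Mb, Myl3, Myl2 and Pln lay below the PBS libraries in every CCN3 library, with Log2FC of -0.52, -0.47, -0.31, -0.41 and -0.45, 5 of 12 markers compared with 18.2% of all genes. Ryr2, the cardiac calcium release channel, and Casq2, the cardiac calsequestrin, lay above in every CCN3 library, with Log2FC of 0.25 ± 0.08 and 0.20 ± 0.08 (SE), 2 of 12 compared with 15.1% of all genes. Myh6, the adult ventricular myosin heavy chain, had a Log2FC of -0.07 ± 0.15 (SE), Mybpc3 0.02 ± 0.11 and Ttn 0.14 ± 0.17. The summed level of the 12 markers ran from 35528 to 43432 CPM in PBS libraries and from 31980 to 36315 in CCN3 libraries, and the ranges overlapped. PBS replicate 1 was the highest library for 9 of the 12 and gave the sum of 43432, compared with 35528 and 38151 in PBS replicates 2 and 3. How often PBS replicate 1 was highest over all genes was not measured. In whole tissue, fewer cardiomyocytes and less of a transcript per cardiomyocyte cannot be told apart. Median Log2FC were -0.03 for 8 fibroblast markers, -0.07 for 8 macrophage markers, -0.13 for 6 endothelial markers and 0.36 for 4 atrial markers, and 0 passed in limma in any of these lists. At an unadjusted p under 0.05, 1 fibroblast marker was higher and 1 lower, 1 macrophage and 2 endothelial markers were lower, and 0 atrial markers differed. Of all genes, 10.6% met that level. Groups did not overlap for 3 fibroblast markers with CCN3 above and 2 below. They did not overlap, with CCN3 below, for 2 macrophage, 2 endothelial and 1 atrial marker. The shares over all genes were 15.1% above and 18.2% below.

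Genes with the pattern most like each troponin I gene were listed among the 10909 genes whose mean level reached 3 log2 CPM. After RUV removal the values vary along only 3 directions once the mean over libraries is taken out, so correlations close to 1 arise readily and are given as a description over 6 libraries. Among the closest to Tnni3 were Stard10, Dhrs7c, BC028528 and Akr1b3, with Pearson r of at least 0.9996. Each r includes the difference between the groups, so a gene close to a troponin gene tends to share its group difference by selection. Of the genes named for Tnni3, Stard10 and Dhrs7c were called lower, compared with 1.08% of all genes. Their Log2FC were -0.62 and -0.64 (limma adjusted p = 0.162 and 0.119). Mamstr, Lmf2, Maff, Mad2l1bp and Angptl4 were closest to Tnni1, and Pdia3, Dlgap5, Txndc12, Mical1 and Supt16 to Tnni2, with r of at least 0.9992, and 0 of these passed in limma (Angptl4 alone had an unadjusted p under 0.05, 0.0469).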

How the data were processed

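Left ventricle RNA was sequenced in 3 PBS and 3 CCN3 libraries. The authors quantified reads with Salmon 1.4.0 (version from the submitters' processing notes) on the GRCm39 transcriptome, removed 2 RUV factors and deposited log2 CPM values. Stranded libraries were used. How low counts were filtered, and which prior count was added, is not given in the sources used here. A second deposited table holds the authors' own fold changes, p-values and false discovery rates and was not used.

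After group means were subtracted, values varied along 2 of 4 dimensions (singular value tolerance 1e-06). The 2 empty directions were entered with treatment in limma 3.58.1 (R 4.3.3, mean-variance trend), which left 2 residual degrees of freedom plus 4.469 from the prior. The threshold was a Benjamini-Hochberg adjusted p of 0.2 over 15909 genes. Errors and p-values measure the spread that remained after the factors were removed, which may be technical. Isoform differences were tested by exact permutation.

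Named genes were all troponins, called members of the fixed lists (at most 6 each) and the 5 genes most like each of Tnni3, Tnni1 and Tnni2. Of these, 1 gene is not reported here. Other list genes were named after their values were seen. The members and lists were chosen with earlier results of these data known. Positions, transcript lengths and promoters came from GENCODE on GRCm39. Alternatives covered the trend, covariates, replicate block, median centring, a mean log2 CPM of at least 1, log2(CPM + 1), and each library left out.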

Additional observations from a re-analysis of the deposited data

How the results depend on the processing

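The fall of Tnni3 held in 4 of 6 fits that left out a library and in 5 of 6 other alternatives. Members that rose numbered 0 to 2 and members that fell 0 to 1 when a library was left out (2 rose without PBS replicate 1, 1 without CCN3 replicate 1, and 0 fell without PBS replicate 3 or CCN3 replicate 3), while 22 to 951 of all genes rose and 28 to 1268 fell. Without a mean-variance trend 0 members fell, and 0 genes rose and 1 fell in all. With treatment only, 3 members rose, and 2138 genes rose and 2633 fell. With the replicate block in place of the empty directions, 2 members rose (Tnni2 and Tnnt3) and 2 fell (Tnni3 and Tnnt1), and 2686 genes rose and 3246 fell. The last 2 settings ignore the removed directions, and block and directions together leave no residual degrees of freedom. Same-numbered libraries had correlations of deviations of 0.13, 0.97 and -0.98. These deviations vary along only 2 dimensions after the removal of 2 RUV factors, so values near 1 or -1 arise readily. Variation shared by same-numbered libraries may have been taken out, so these values cannot show whether the numbers pair libraries. Only PBS replicate 2 and CCN3 replicate 2 correlated best with their own number. Centring on the median left 104 genes that fell. The Log2FC of Tnnt2 ran from -0.0188 to 0.0529 with a library left out, at -0.0188 without PBS replicate 2, -0.0129 without PBS replicate 3 and -0.0145 without CCN3 replicate 3, and that of Tnnc1 ran from -0.00226 (without PBS replicate 2) to 0.132. The cause of the spread among these values was not tested. The 4 within-library isoform differences kept their direction under every alternative run, at 0.86 to 1.32 for Tnni1 minus Tnni3, 1.05 to 1.401 for Tnni2 minus Tnni3, 1.10 to 1.69 for Tnnt3 minus Tnnt2 and -0.20 to -0.04 for Tnnt1 minus Tnnt2 with a library left out, although at this size their exact p could not pass 0.05. On the log2(CPM + 1) scale the difference Tnni1 minus Tnni3 was 0.75. Tnni1 could not be tested with the filter on low values, since its mean lies below it. Raw counts were not analysed here, so the counting noise of the low genes Tnni1, Tnni2 and Tnnt3 is unknown.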
